A study of Rattus norvegicus with 6 samples.

Results

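The genes described here are 8 that phagocytes use on their surface or as effectors: Fcgr2b, Cd14, Ptprc, Cd53, Cd48, Lyz2, Cyba and Apobec1. They were read by all probe sets that the array's annotation gives to exactly 1 of these genes, which came to 11 of 8799 probe sets, for 8 of 4736 genes on the array. A probe set is a group of short oligonucleotides that together give 1 signal, annotated here to 1 gene or, for 308 probe sets, to several. Cd14 had 2 probe sets, Ptprc had 3, and the other 6 genes had 1 each. Total RNA of the rat spinal cord, near thoracic segment 8, was isolated and measured on 6 one-colour arrays. In the contusion group, 3 arrays held tissue from the epicenter, the point of impact of a blunt blow to the cord, at day 35 after injury. In the uninjured group, 3 arrays held tissue of the same position from animals without injury, and the titles give these arrays neither a day nor a sham operation. The labels give no strain, sex, age, genotype or drug for either group. They do not state that each array had its own animal, so each p-value reflects array-to-array spread, part of which may be technical.

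Phagocytes, which in the injured cord are resident microglia and macrophages that enter from the blood, recognise targets through surface receptors, engulf them and break them down. Fc receptors bind antibody-coated material, and CD14 presents bacterial lipids and debris to Toll-like receptors. After engulfment, an oxidase in the vacuole membrane makes superoxide and lysosomal enzymes such as lysozyme digest the content, while broadly carried leukocyte proteins such as CD45, CD53 and CD48 tune signalling at the surface.

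All 8 genes were higher in contused than in uninjured cord by at least 1 probe set. Of the 10 member probe sets that were bright enough to test, 9 passed limma's test at an adjusted p of 0.05, all of them higher in contused cord, where 7.79% of all 6705 tested probe sets were called higher, 9.59% lower and 17.4% in either direction. The signals of the contused and the uninjured arrays did not overlap for any of the 10, against 16.6% of all tested probe sets with contused signals wholly above. The median log2 change over the 10 was 1.41, and over all 6705 it was -0.01. Of the 10, 6 probe sets of 6 genes were at least 2-fold higher, which held for 2.0% of all tested probe sets. Fcgr2b and Apobec1 could be tested only through their contused arrays, since every uninjured array lay under the floor, set at the pooled 25th percentile of all signals. AF087943_s_at of Cd14 and M25823_s_at of Ptprc, with 1 and 2 uninjured arrays above the floor, also needed contused arrays to reach the 3 required. The counts above were therefore partly fixed by the filter on dim probe sets. They were also partly fixed by the choice of the members, which was made with earlier results of these data known. The shares of all tested probe sets beside them are a description and not a test. A called rise with every uninjured array at the floor, as for Fcgr2b and Apobec1, occurred in 0.611% of tested probe sets. In bulk tissue, more cells of a type and more RNA per cell cannot be told apart.

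**Figure D1:**
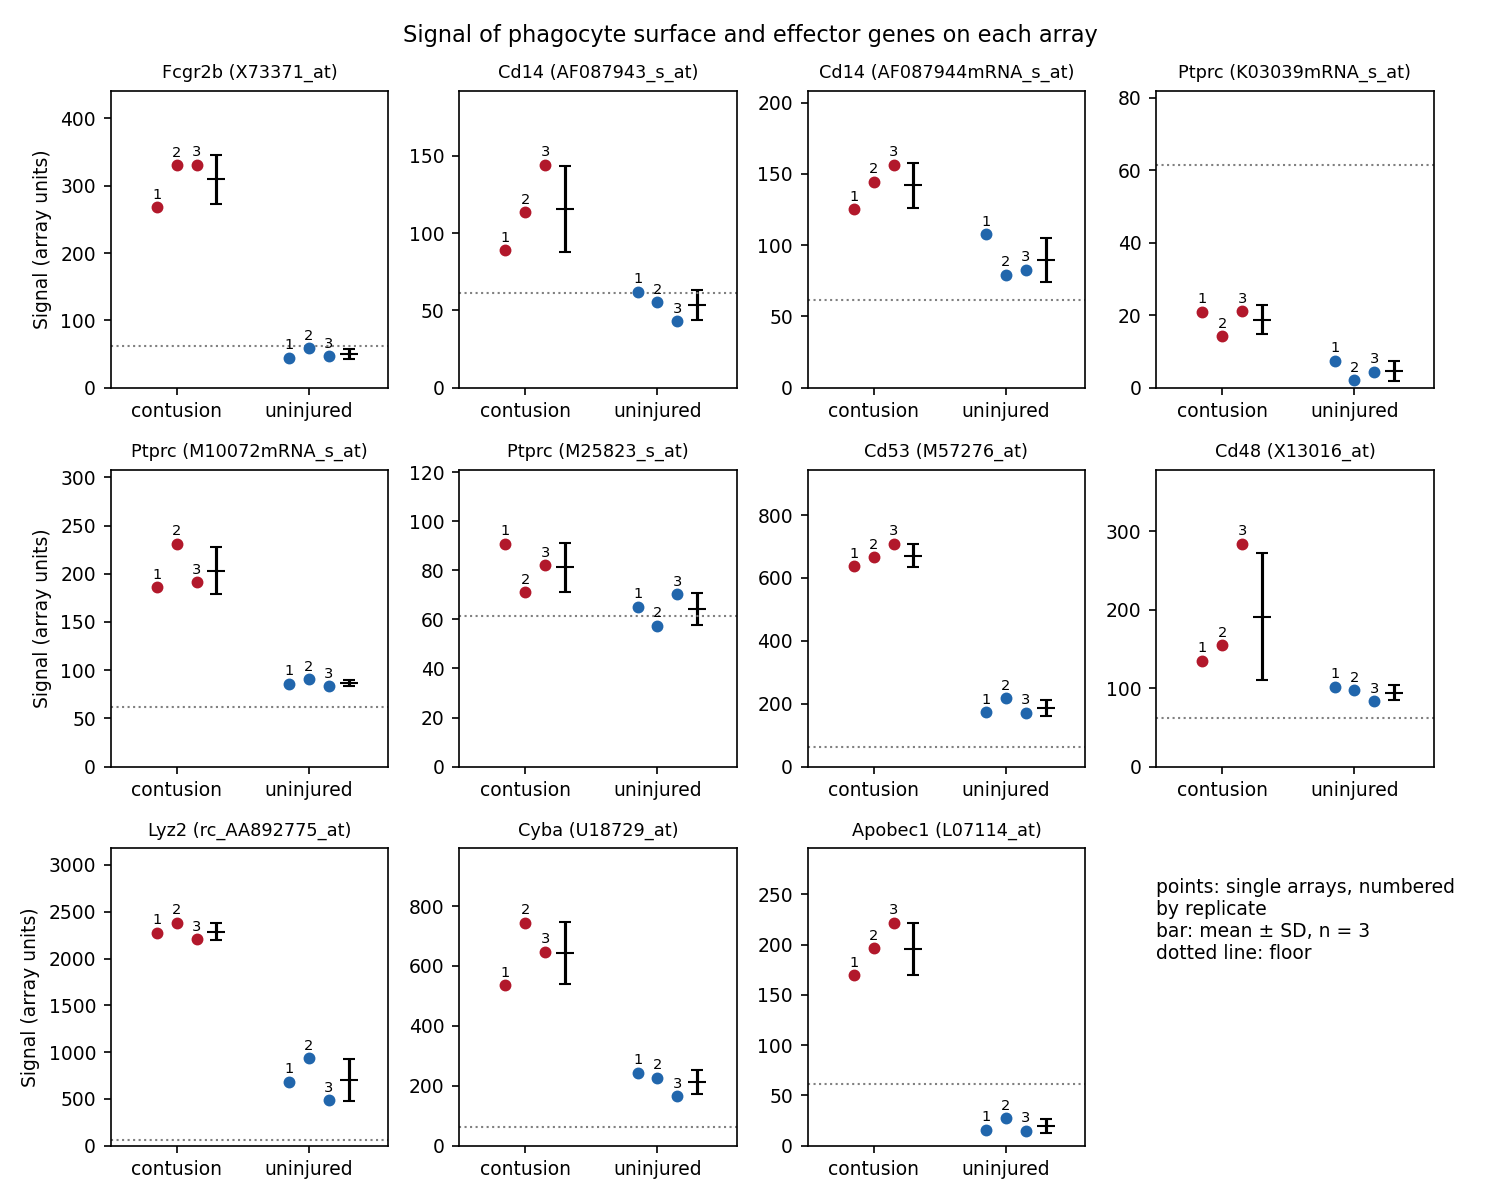
Signal of each of the 11 member probe sets (vertical axis, linear from 0, array units) on the 3 contused arrays (red) and the 3 uninjured arrays (blue), 1 numbered point per array, with the mean ± SD as a bar and the floor of 61.6 as a dotted line. Contused points lie above uninjured points for every probe set, and the 3 contused and 3 uninjured points of the Ptprc probe set K03039mRNA_s_at all lie under the floor.

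Fcgr2b encodes the inhibitory low-affinity IgG receptor, which restrains the activating Fc receptors through a phosphatase-recruiting motif in its tail. Its probe set X73371_at gave 267.7, 330.2 and 331.1 intensity units on the contused arrays, against 44.7, 58.8 and 46.9 on the uninjured arrays. All 3 contused arrays were well clear of the floor of 61.6, and all 3 uninjured arrays were under it. The mean was 310 ± 36.4 in contused and 50.1 ± 7.57 in uninjured cord (SD, n = 3 each). The log2 change against the floor was 2.32 (SE 0.14, 95% interval 2.0 to 2.6, limma adjusted p = 1.18e-05), so Fcgr2b was at least 5.01-fold higher. All 3 uninjured values were set to the floor, so this SE, interval and p hold no spread among the uninjured arrays of Fcgr2b. With no floor the SE was 0.16. It ranked 8 among the 6705 tested probe sets by log2 change. Within each array the probe set stood on average at percentile 79.2 of all signals in contused cord and at percentile 20.1 in uninjured cord. Other low-affinity Fc gamma receptors resemble Fcgr2b in sequence, and whether this probe set also reads them was not tested.

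Among 9 other genes of Fc receptor signalling with a tested probe set, 3 rose and none fell, with a median log2 change of 0.46, where 7.0% of all 3955 tested genes rose, 9.91% fell and the median was -0.02. Ptpn6, the phosphatase SHP-1 that inhibitory receptors recruit, measured 195, 279.7 and 239.4 in contused against 127.3, 140 and 123 in uninjured cord (log2 change 0.86, SE 0.16, adjusted p = 0.00532). Inpp5d, the lipid phosphatase SHIP1 that the Fcgr2b tail recruits, measured 232.6, 233.1 and 198.7 in contused against 139.2, 146.5 and 158.3 in uninjured cord (log2 change 0.58, SE 0.14, adjusted p = 0.0185). The groups did not overlap for either phosphatase. Inpp5d did not pass without contused array 1, contused array 2, uninjured array 1 or uninjured array 3, with adjusted p of 0.0587, 0.0812, 0.0649 and 0.0517, and in each of these fits 2 genes of the list rose, Fcgr2b included, against 4 as reported. The third was Fcgrt, the neonatal Fc receptor that recycles IgG, with a log2 change of 0.49 and an adjusted p of 0.0312. The kinases Lyn, Syk and Fgr, the adaptor Lcp2, the exchange factor Vav1 and the phospholipase Plcg2 did not pass, with log2 changes between -0.18 for Vav1 and 0.46 for Lyn. Lyn had a dimmer probe set that did pass, with a log2 change of 0.68 (adjusted p = 0.0103).

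Cd14 encodes the co-receptor that hands bacterial lipopolysaccharide to Toll-like receptor 4. Both of its probe sets were higher in contused cord. The first, AF087943_s_at, read 89.1, 113.7 and 144.3 in contused against 62.2, 55.2 and 42.9 in uninjured cord, and only 1 of the uninjured arrays was above the floor. Its means were 116 ± 27.6 in contused and 53.5 ± 9.78 in uninjured cord (SD, n = 3 each), and its log2 change was 0.88 (SE 0.17, 95% interval 0.51 to 1.25, adjusted p = 0.00481, 1.84-fold), with the dim uninjured arrays raised to the floor. With no floor its log2 change was 1.10. The other, AF087944mRNA_s_at, was above the floor on all 6 arrays, with 125.2, 144.5 and 156.3 in contused against 107.5, 79.3 and 82.7 in uninjured cord. The lowest contused array exceeded the highest uninjured array by 1.16-fold, a narrow gap. The means of this probe set were 142 ± 15.7 in contused and 89.8 ± 15.4 in uninjured cord, with a log2 change of 0.67 (SE 0.16, 95% interval 0.31 to 1.02, adjusted p = 0.0163, 1.59-fold). It no longer passed when contused array 2, uninjured array 2 or uninjured array 3 was left out, with adjusted p of 0.0606, 0.0667 and 0.0823.

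Of 4 other genes of the CD14 pathway on the array, 2 could be tested, and Nfkbia, which encodes the inhibitor of NF-kappa-B and is itself induced by it, was the 1 that rose. Nfkbia measured 102.6, 158.3 and 132.1 in contused against 63.3, 75.7 and 84.7 in uninjured cord, with a log2 change of 0.80 (SE 0.18, adjusted p = 0.0117). Nfkb1, the p105 and p50 subunit of NF-kappa-B, had a log2 change of -0.04 with overlapping groups (adjusted p = 0.908). Tlr4, the signalling receptor, read 80.5, 58.2 and 71.4 in contused against 50.8, 40.9 and 46.5 in uninjured cord. Lbp, which delivers lipopolysaccharide to CD14, read 51.7, 92.0 and 75.4 in contused against 18.9, 12.6 and 3.70 in uninjured cord. For Tlr4 and Lbp every contused array was above every uninjured array, but only 2 arrays of each passed the floor, so neither was tested.

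Ptprc encodes CD45, the receptor tyrosine phosphatase carried by leukocytes, and its 3 probe sets did not give the same answer. M10072mRNA_s_at read 186.4, 231.1 and 191.6 in contused against 85.9, 90.7 and 83.6 in uninjured cord, with means of 203 ± 24.4 in contused and 86.7 ± 3.61 in uninjured cord (SD, n = 3 each). Its log2 change was 1.22 (SE 0.14, 95% interval 0.90 to 1.54, adjusted p = 0.000318, 2.33-fold), and the lowest contused array was 2.06 times the highest uninjured array. M25823_s_at read 90.8, 71.0 and 81.9 in contused against 65.2, 57.4 and 70.3 in uninjured cord, so that its groups almost touched. Its means were 81.2 ± 9.92 in contused and 64.3 ± 6.48 in uninjured cord, and its log2 change of 0.30 (SE 0.13, 95% interval 0.02 to 0.58) did not pass, with an unadjusted p of 0.0359 and an adjusted p of 0.133 from limma. K03039mRNA_s_at stayed under the floor throughout and was not tested, with 21, 14 and 21 in contused against 7.4, 2.0 and 4.5 in uninjured cord. The log2 change of 1.22 therefore rests on 1 of 3 probe sets, and which CD45 transcripts each reads was not tested. Of 12 other receptor-type tyrosine phosphatases, each read by its brightest probe set, limma's adjusted test called 0 and 1 had an unadjusted p under 0.05, their median log2 change was 0.01, and Ptprj, which is found on many blood cells, had the largest with 0.62 (unadjusted p = 0.0121, adjusted p = 0.0627). Ptpro, 1 of the 12, had a log2 change of -0.22 by that probe set, while its 2 dimmer probe sets did pass, at 0.71 and 0.59 (adjusted p = 0.00409 and 0.0145).

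Cd53 encodes a tetraspanin, a small scaffold protein with several membrane spans, of leukocytes. Its probe set M57276_at read 638.2, 666.2 and 708.7 in contused against 173.6, 217.2 and 171.8 in uninjured cord. The contused arrays lay close together and the lowest was 2.94 times the highest uninjured array. The means were 671 ± 35.5 in contused and 188 ± 25.7 in uninjured cord (SD, n = 3 each), with a log2 change of 1.85 (SE 0.14, 95% interval 1.53 to 2.17, adjusted p = 3.08e-05, 3.6-fold). Of 7 other tetraspanins tested, 2 rose and none fell, with a median log2 change of 0.30, where 7.0% of all tested genes rose and 9.91% fell. The tetraspanins that rose were Cd63, of lysosomes and late endosomes, with a log2 change of 1.29 (SE 0.12, adjusted p = 9.4e-05), and Cd37, of leukocytes, with 1.21 (SE 0.14, adjusted p = 0.000242). Cd63 read 2054, 2361 and 1942 in contused against 873.4, 918.2 and 805.7 in uninjured cord. Tspan8 came near the threshold with a log2 change of 1.03 (adjusted p = 0.0511), and the widely expressed Cd9, Cd81, Cd82 and Cd151 lay between -0.27 and 0.30 and did not pass, although a dimmer probe set of Cd9 did, at 0.67 (adjusted p = 0.00964).

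Cd48 encodes a lipid-anchored protein of the SLAM family that binds CD2 and 2B4 on lymphocytes. Its probe set X13016_at read 135.1, 154.5 and 284.2 in contused against 102.0, 97.6 and 83.9 in uninjured cord. Contused array 3 stood well above the other contused arrays, and the coefficient of variation was 42.4% in contused and 10.02% in uninjured cord. The means were 191 ± 81.1 in contused and 94.5 ± 9.47 in uninjured cord (SD, n = 3 each), and the log2 change was 0.94 (SE 0.25, 95% interval 0.39 to 1.49, adjusted p = 0.0244, 1.92-fold). Without contused array 3 the log2 change was 0.62 and still passed (adjusted p = 0.027). It did not pass without uninjured array 1, 2 or 3, with adjusted p of 0.0509, 0.0702 and 0.101. Cd2, the lymphocyte partner of CD48 in rat and the 1 other gene of this list on the array, had a log2 change of -0.05 with overlapping groups (adjusted p = 0.86).

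Ptprc, Cd53 and Cd48 belong to a list of broad leukocyte genes, of which 10 were tested, 9 rose and none fell, with a median log2 change of 1.08. The number that rose was 7 to 9 with 1 array left out, 7 with the floor at the 50th percentile and 6 with no filter on dim probe sets. Without the members, 6 of 7 rose and the median was 0.95, where 7.0% of all tested genes rose and 9.91% fell. The 6 were Arpc1b, an actin-branching subunit (log2 change 1.74), Cd44, the hyaluronan receptor (1.42, with a second probe set at -0.16 that did not pass), Cd37 (1.21), Coro1a, an actin regulator (0.95), Ptpn6 (0.86) and Itgam, the integrin CD11b (0.47, a lower bound since all uninjured arrays were at the floor). Cd37 and Ptpn6 also belong to the tetraspanin and Fc receptor lists above. Cd52, a small surface glycoprotein, had a log2 change of -0.04 and did not pass (adjusted p = 0.857).

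**Figure D2:**
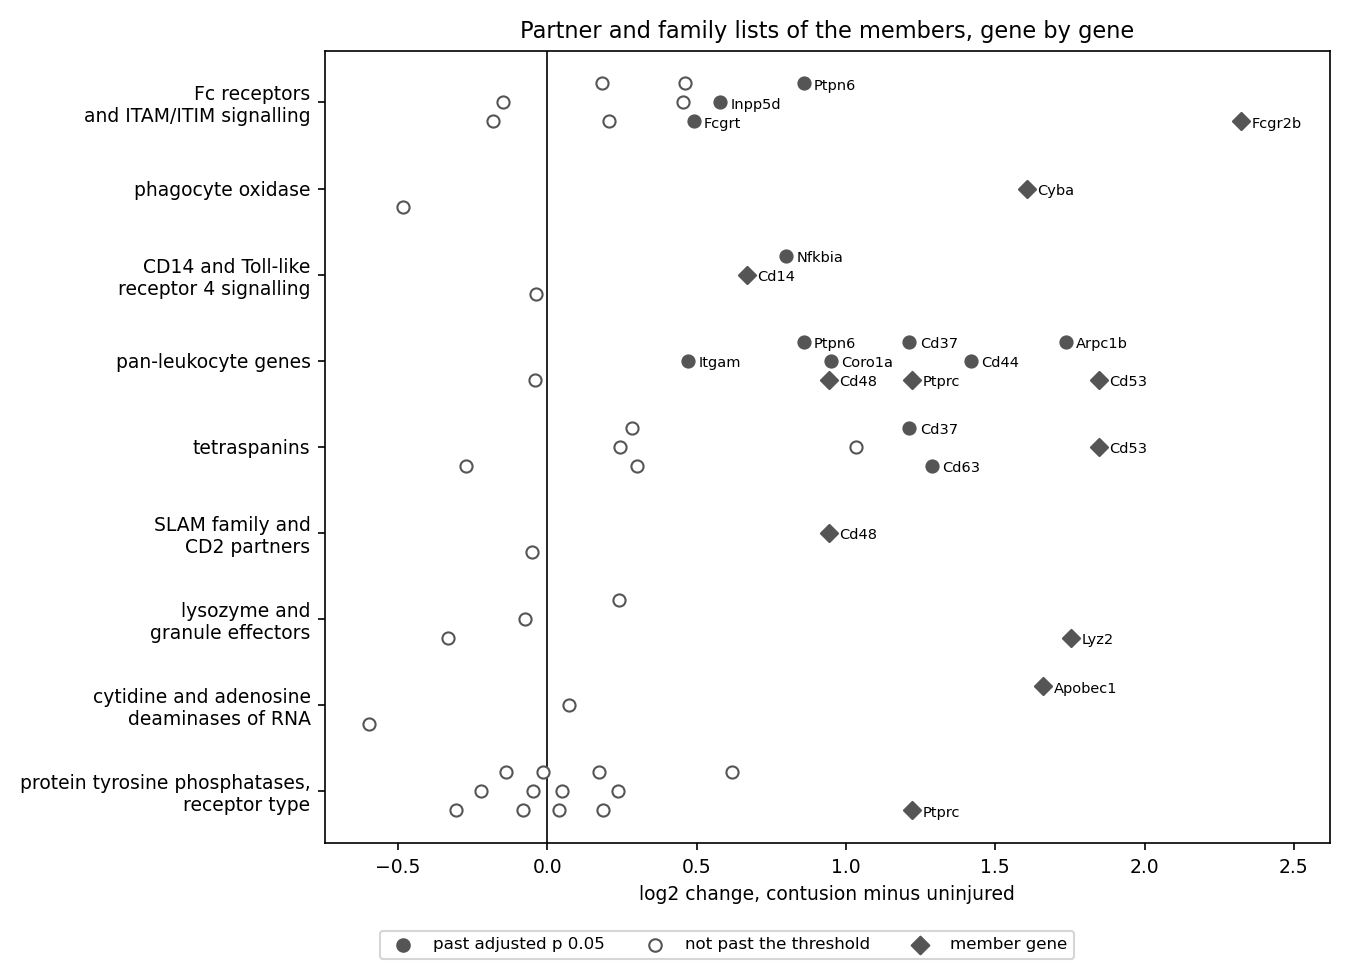
Log2 change, contusion minus uninjured, of each tested gene in 9 lists around the members, with filled circles past an adjusted p of 0.05, open circles not past it, and diamonds for members. Broad leukocyte genes lie mostly between 0.47 and 1.85, while the 12 receptor-type phosphatases other than Ptprc scatter around 0 and are all open circles.

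Lyz2 encodes lysozyme, the enzyme that cleaves bacterial cell walls and is made in quantity by macrophages. Its probe set rc_AA892775_at read 2275, 2382 and 2207 in contused against 683.7, 936.9 and 486.0 in uninjured cord. The contused arrays differed little, with a coefficient of variation of 3.85%, against 32.2% among the uninjured arrays. The means were 2288 ± 88.0 in contused and 702 ± 226 in uninjured cord (SD, n = 3 each), and the log2 change was 1.75 (SE 0.20, 95% interval 1.31 to 2.20, adjusted p = 0.00027, 3.37-fold). Of 3 other granule genes tested, limma's adjusted test called 0, and 0 had an unadjusted p under 0.05, with log2 changes of 0.24 for Lcn2, which binds bacterial iron carriers (unadjusted p = 0.0716, adjusted p = 0.21), -0.08 for Srgn, the granule proteoglycan (adjusted p = 0.718), and -0.33 for S100a9, a calcium-binding protein abundant in neutrophils (adjusted p = 0.387). The defensin Defa5 and S100a8 were too dim to test.

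Cyba encodes p22phox, the membrane subunit that holds the catalytic chain of the phagocyte oxidase and of related oxidases. Its probe set U18729_at read 536.1, 744.3 and 647.3 in contused against 243.2, 226.7 and 166.2 in uninjured cord. The groups were far apart, the lowest contused array being 2.20 times the highest uninjured array. The means were 643 ± 104 in contused and 212 ± 40.6 in uninjured cord (SD, n = 3 each), and the log2 change was 1.61 (SE 0.18, 95% interval 1.20 to 2.01, adjusted p = 0.000266, 3.04-fold). The only other oxidase gene with a probe set was Rac1, a small GTPase that also serves many other cell functions, which read 422.2, 419.1 and 616.5 in contused against 707.9, 664.7 and 634.6 in uninjured cord. Its groups did not overlap, with the contused arrays lower, but the log2 change of -0.48 did not pass (SE 0.17, adjusted p = 0.0714). The remaining 8 listed oxidase genes were not analysed here.

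Apobec1 encodes the cytidine deaminase that edits apolipoprotein B messenger RNA. Its probe set L07114_at read 169.8, 196.1 and 221.7 in contused against 15.8, 27.3 and 14.9 in uninjured cord. Every uninjured array was far under the floor, and the lowest contused array was 6.22 times the highest uninjured array. The means were 196 ± 25.9 in contused and 19.3 ± 6.93 in uninjured cord (SD, n = 3 each), and the probe set stood on average at percentile 66.0 of all signals in contused and at percentile 5.61 in uninjured cord. The log2 change against the floor was 1.66 (SE 0.14, 95% interval 1.35 to 1.97, adjusted p = 5.79e-05), so Apobec1 was at least 3.16-fold higher. With no floor the log2 change was 3.39 (SE 0.24), and with a floor at the median of all signals it was 0.64, both outside that interval. All 3 uninjured values were set to the floor, so the interval and p hold no spread among the uninjured arrays of Apobec1. Neither tested adenosine deaminase of RNA passed, with log2 changes of 0.07 for Adar (adjusted p = 0.838) and -0.60 for Adarb1 (adjusted p = 0.12), and Adarb2 was under the floor on all 6 arrays.

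**Figure D3:**
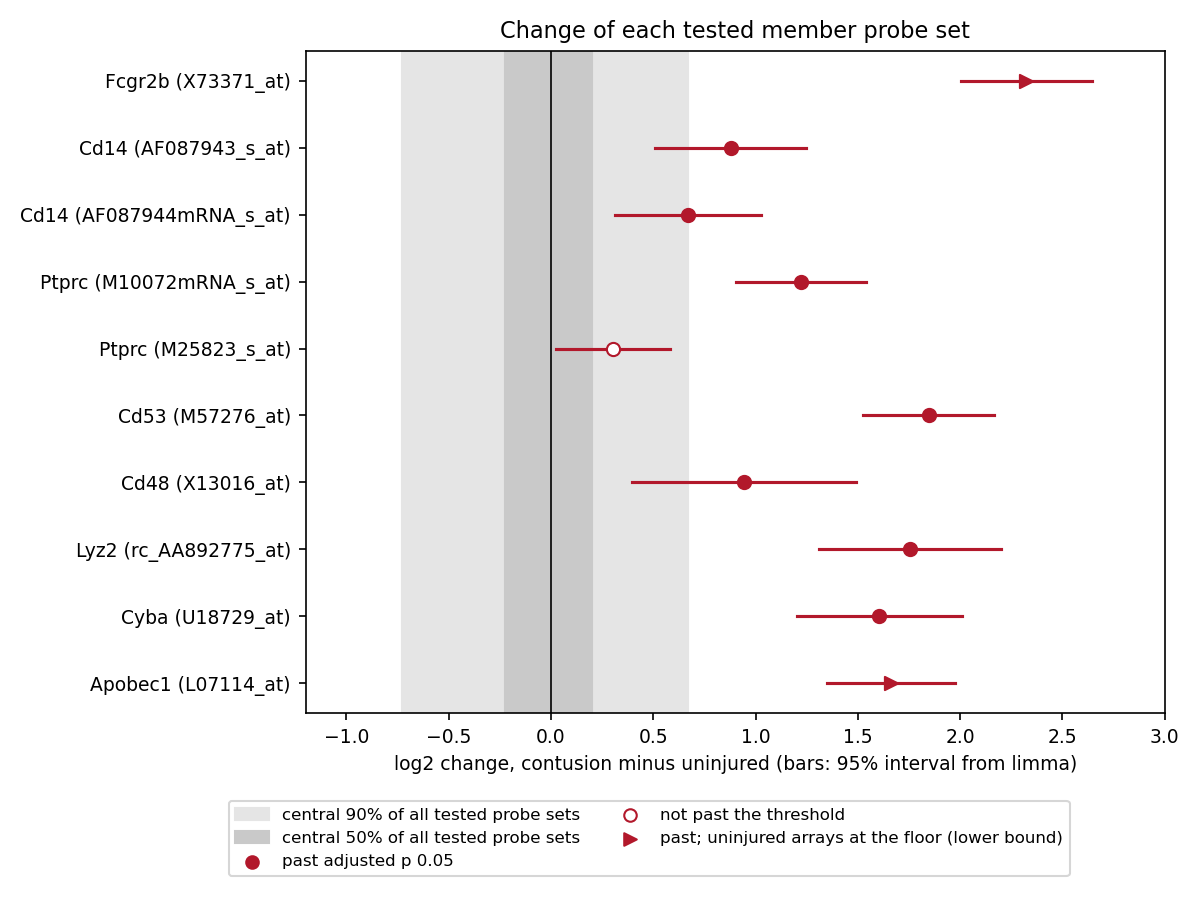
Log2 change, contusion minus uninjured, of the 10 tested member probe sets with 95% intervals from limma, over bands that hold the central 50% and 90% of all 6705 tested probe sets. The 2 triangles, Fcgr2b and Apobec1, are lower bounds, and M25823_s_at of Ptprc, the open circle at 0.30, is the 1 that does not pass.

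**Figure D4:**
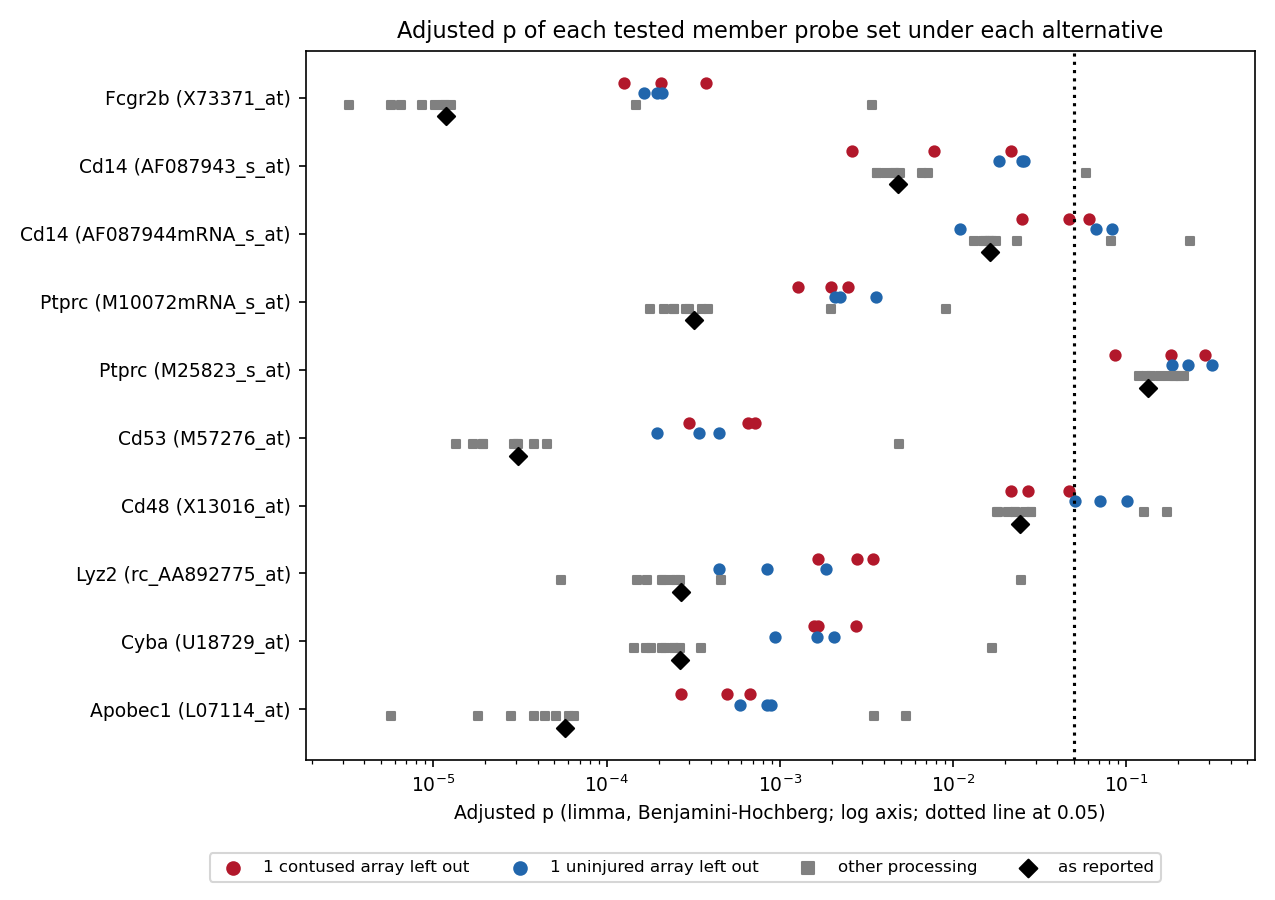
Adjusted p (log axis, limma with Benjamini-Hochberg adjustment, dotted line at 0.05) of each tested member probe set as reported (diamonds), with 1 contused or 1 uninjured array left out (circles) and under other processing (squares). Cd48 and AF087944mRNA_s_at of Cd14 cross the line when some arrays are left out, and Fcgr2b, Cd53, Lyz2, Cyba, Apobec1 and M10072mRNA_s_at of Ptprc stay left of it.

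Within groups, the same arrays were low for most members. Of the 10 tested probe sets, 8 had their lowest contused signal on contused array 1, and 7 had their lowest signal of all on uninjured array 3. The trimmed mean of all signals was 209 on contused array 1, 219 and 218 on contused arrays 2 and 3, and 217 to 228 on the uninjured arrays, with 223 on uninjured array 3. When every array was divided by its trimmed mean, 9 member probe sets passed again, and 627 of all probe sets were called higher, against 522 as reported. Which array was lowest was not counted over all tested probe sets, so whether this ordering is particular to the members was not tested. The 5 other genes whose log2 signals followed the mean of the members most closely over the 6 arrays were Tgfb1, a cytokine (Pearson r = 0.995), Lgals3, a galectin of macrophages (0.992), Adcy4, an adenylyl cyclase (0.991), Gadd45a, a stress-response gene (0.991), and Hmox1, heme oxygenase (0.991). Of 3947 other genes, 109 had r over 0.95, which is 2.76%, and 140 had r under -0.95. These correlations rest on 6 arrays in 2 groups and mostly restate the group difference. After group means were subtracted, r was 0.975 for Tgfb1, 0.743 for Lgals3, 0.798 for Adcy4, 0.751 for Gadd45a and 0.793 for Hmox1.

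The 250 bases before the start of each gene were looked up in RefSeq for the GRCr8 assembly, and 7 of the 8 genes were found. A pair of short motifs were searched on both strands after the values were known: GAGGAA, the core of sites for the myeloid factor PU.1, and GGGCGG, the GC box common in promoters of widely expressed genes. GAGGAA was found in 5 of 7 member promoters (Apobec1, Cd14, Cd53, Lyz2 and Ptprc) and in 23.3% of 33469 promoters of the genome, and GGGCGG in 1 of 7 (Cyba) and in 30.5%. The motifs do not overlap each other. Shown here, 5′ to 3′ on the gene's strand with matches in capitals, are Cd53 at chr2:197087926-197088146 (minus strand), whose match TTCCTC lies on the opposite strand 44 to 39 bases before the start, Ptprc at chr13:52259811-52259996 (minus strand), whose match lies 163 to 158 bases before it, and Cyba at chr19:67404215-67404464 (minus strand), with a pair of GC boxes.
Cd53: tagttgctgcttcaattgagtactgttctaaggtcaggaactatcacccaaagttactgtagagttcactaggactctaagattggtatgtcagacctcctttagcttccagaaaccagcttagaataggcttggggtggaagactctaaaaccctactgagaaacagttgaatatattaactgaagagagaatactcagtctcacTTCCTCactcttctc
Ptprc: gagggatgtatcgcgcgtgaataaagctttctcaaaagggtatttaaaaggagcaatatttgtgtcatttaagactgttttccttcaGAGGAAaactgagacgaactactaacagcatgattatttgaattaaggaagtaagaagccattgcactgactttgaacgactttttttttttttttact
Cyba: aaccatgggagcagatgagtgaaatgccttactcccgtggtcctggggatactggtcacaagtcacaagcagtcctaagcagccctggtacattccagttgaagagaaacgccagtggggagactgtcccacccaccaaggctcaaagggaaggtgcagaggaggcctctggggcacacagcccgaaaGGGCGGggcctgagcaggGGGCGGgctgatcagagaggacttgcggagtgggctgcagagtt
Of the 7 promoters, that of Cd48 held neither motif. A match of letters is a description and not a site of binding, which was not measured. Members and motifs were both chosen with results of these data known, and whether the members share a regulator was not tested.

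Markers of microglia and macrophages mostly rose, as the members did, while neuronal markers mostly fell. Of 10 microglia and macrophage markers tested, 9 rose and none fell, with a median log2 change of 0.73, where 7.0% of all tested genes rose and 9.91% fell. The summed signal of these markers was 5970 to 6617 in contused against 2026 to 2350 in uninjured cord. The number that rose was 6 to 9 with 1 array left out and 6 with no filter on dim probe sets. The leading genes were Lgals3 (log2 change 3.07, adjusted p = 1.03e-05), C1qb, a chain of the complement starter C1q (1.94, adjusted p = 3.01e-05), and C1qc (1.94, adjusted p = 6.96e-05), of which C1qc had a second probe set at 0.26 that did not pass. The exception was Csf1r, the receptor for the macrophage growth factor, with 83.2, 81.8 and 88.9 in contused against 119.9, 86.2 and 115.2 in uninjured cord (log2 change -0.33, adjusted p = 0.175). Of 12 T and NK cell markers tested, the 1 that rose was Cd4, which rat macrophages also carry (log2 change 0.97, adjusted p = 0.00259). The summed T and NK cell signal was 1767 to 2186 in contused against 1704 to 2003 in uninjured cord, and 3 markers were under the floor on all 6 arrays. None of 3 tested neutrophil markers passed limma's adjusted test, 0 had an unadjusted p under 0.05, and 4 more were too dim to test, their summed signal being 415 to 507 in contused against 355 to 534 in uninjured cord. None of 1 B and plasma cell marker, 3 mast cell markers, 4 red cell markers and 6 endothelial markers passed limma's adjusted test, and 2 of the red cell markers and 0 of the others had an unadjusted p under 0.05. Of 10 fibroblast and meningeal markers 4 rose, but 1 without contused array 2 and 1 with no filter on dim probe sets, and the 1 that fell was Thy1, which is also a neuronal marker and is counted below as well. Of 9 astrocyte markers 2 rose, but 0 without contused array 2, contused array 3 or uninjured array 3, 0 with no filter on dim probe sets, and 1 without any of the other 3 arrays in turn. Neuronal markers fell for 11 of 12, with a summed signal of 9422 to 9888 in contused against 18344 to 21214 in uninjured cord, and oligodendrocyte markers fell for 5 of 9. The part of these markers in the members' differences was not tested.

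**Figure D5:**
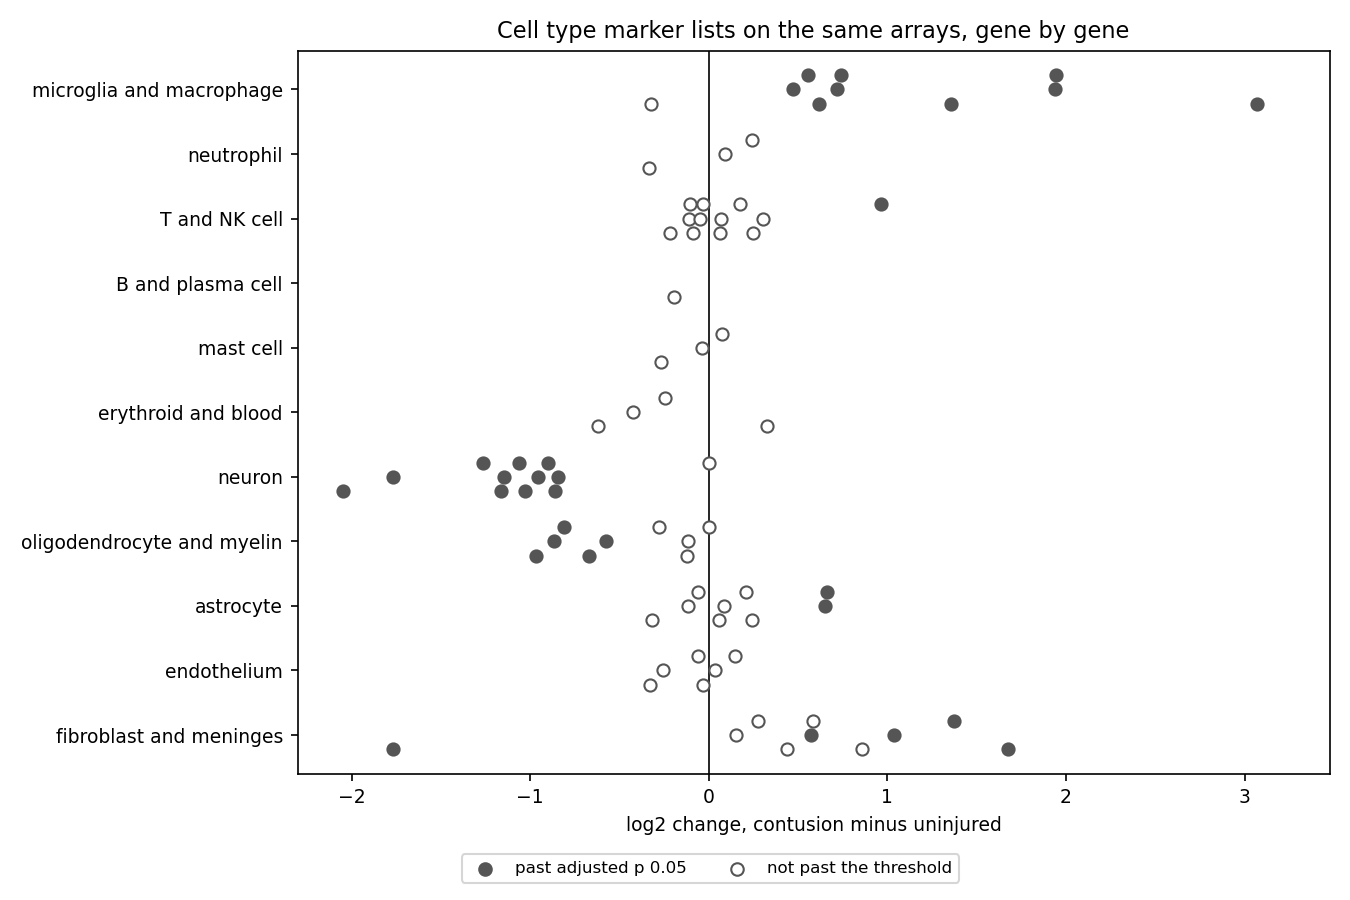
Log2 change, contusion minus uninjured, of each tested marker gene of 11 cell types, 1 point per gene, with filled circles past an adjusted p of 0.05 and open circles not past it. The microglia and macrophage markers lie right of 0 except Csf1r at -0.33, neuronal markers lie left of 0 for 11 of 12, and Cd4 at 0.97 is the 1 filled circle among T and NK cell markers.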

How the data were processed

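Total RNA of 3 contused (day 35) and 3 uninjured samples of rat spinal cord was measured on 1-colour arrays. The authors' deposited table holds 1 intensity per probe set and array, on a linear scale judged from the values, with 21 to 32 values below 0 per array; summarisation, background correction and scaling are not given in the sources used here. It held 0 columns of other samples. Trimmed means (2% off each end) spread by 8.54%, under a limit of 10%, so the values were used as deposited. After 59 controls were dropped, values under the pooled 25th percentile (61.6, or 5.94 in log2) were raised to it as a floor. Probe sets above the floor on at least 3 of 6 arrays were tested, 6705 of 8740, and 73.1% to 76.0% of values per array were above it.

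Contused arrays were compared with uninjured arrays in limma 3.58.1 (R 4.3.3; lmFit, eBayes with an intensity trend, two-sided, 4 residual degrees of freedom), with Benjamini-Hochberg adjustment over all tested probe sets and a threshold of 0.05. The script was first tested on simulated data. With 3 arrays a group the smallest p of an exact permutation test is 0.1, and this test was left out; the number of arrays limits the precision. Folds are 2 to the power of the log2 change, which understates differences near the floor; where all arrays of a group lay at the floor the fold is "at least".

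Symbols came from the platform annotation and were looked up by gene identifier in RefSeq (GRCr8) for 6985 probe sets; 7006 carried 1 gene, 308 several and 1426 none. In 20 further gene lists each gene was read by its brightest tested probe set, giving 3955 genes. Up to 3 genes past the threshold per list and direction, or the brightest 2, were to be named; further named genes (Fcgrt, Lyn and the rest of that list, Rac1, Tlr4, Lbp, Csf1r and other listed genes) were picked with their values known. The members, lists and motifs were chosen with earlier results of these data known. The 16 alternatives covered floor, filter, scaling, moderation, the replicate block and each array left out; for markers other than those of microglia, neutrophils, T and NK cells single genes were not rerun. Python 3.11.15, pandas 2.3.3 and matplotlib 3.10.9 made tables and plots.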

Additional observations from a re-analysis of the deposited data

How the results depend on the processing

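All 16 alternatives ran, and every member's log2 change stayed positive in each in which it could be tested. Fcgr2b, Cd53, Lyz2, Cyba, Apobec1 and the Ptprc probe set M10072mRNA_s_at passed throughout, M25823_s_at never. The Fcgr2b change ran from 1.30 with the floor at the 50th percentile to 2.63 with none. Of the member probe sets, 6 passed with that higher floor, which left AF087943_s_at and M25823_s_at too dim to test, 6 with no filter on dim probe sets and 7 to 9 with 1 array left out. With no filter, dim probe sets entered both the adjustment and limma's moderation of variances, so standard errors changed as well. The SE went from 0.25 to 0.32 for Cd48 and from 0.14 to 0.12 for Fcgr2b. In that fit 662 probe sets passed (266 higher, 396 lower), against 1165 (522 higher, 643 lower) as reported. The log2 changes of Cd14 (0.88, adjusted p = 0.0582, and 0.67, adjusted p = 0.082) and Cd48 (0.94, adjusted p = 0.172) no longer passed. With the floor at the 50th percentile, AF087944mRNA_s_at of Cd14 (0.18, adjusted p = 0.234) and Cd48 (0.53, adjusted p = 0.126) did not pass; the cause was not tested. With 1 array left out, 659 to 1260 probe sets passed (276 to 484 higher, 383 to 776 lower), AF087944mRNA_s_at ran from 0.58 to 0.80, Cd48 from 0.62 to 1.15, the Fc receptor genes that rose from 2 to 4, and the receptor-type phosphatases from 1 to 2. Phosphatases that rose were 2 with trimmed mean scaling and 2 with the replicate block. Klrb1a, a lymphocyte marker that did not pass in any setting, had a log2 change of -0.09 as reported, 0.0030 with quantile normalization and -0.26 to 0.031 with 1 array left out (0.017 without uninjured array 3). Nfkbia did not pass with no filter (adjusted p = 0.0908), nor Cd4 with the floor at the 50th percentile (adjusted p = 0.0827).

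Replicate numbers are shared by both groups, and the labels name no pairing. The deviations of same-numbered arrays from their group means correlated at 0.04, 0.22 and -0.24. Contused array 1 correlated best with uninjured array 3 (0.27), contused array 2 with uninjured array 2 (0.22) and contused array 3 with uninjured array 1 (0.14). With 3 arrays a group these deviations cancel out within each group, so the correlations cannot decide whether the numbers mark a pairing. With the replicate block 1200 probe sets passed, of them 9 of the members.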
